A study of Rattus norvegicus with 12 samples.

Results

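Transcripts of 7 neuropeptide precursors were followed in the thoracic spinal cord of rats after a mild compression injury. They were chosen by gene symbol as Vgf, Tac1, Gal, Sst, Npy, Penk and Calca, and each of the 7 had 1 probe on the array. The array held 22226 probes with symbols for 12978 genes. The study hybridised 12 pools of RNA from female Sprague-Dawley rats aged 10 weeks, 1 pool for each combination of 2 genotypes and 6 conditions. The genotypes were G93A SOD1 mutants, which carry a mutation of the SOD1 gene known from familial amyotrophic lateral sclerosis, and their wild-type (WT) littermates. Each genotype was sampled 30 min and 4 h after a sham operation, and 30 min, 4 h, 24 h and 7 d after compression of the cord. Animals of a condition were pooled before labelling, and the sources used here do not give the number of rats per pool, the promoter of the mutant gene or its copy number. The spread between animals within a pool is therefore unknown, and every difference below is judged against the variation between pools.

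Neuropeptides are made as larger precursor proteins that are cut by convertases inside dense-core vesicles and released on strong or repeated firing. In the cord they are found mainly in neurons of the dorsal horn and in the central endings of sensory neurons, where substance P carries pain signals and enkephalin, galanin, somatostatin and neuropeptide Y mostly dampen transmission. The precursor transcripts are known to respond to neuronal activity and axon damage, in part through the cAMP response element, a DNA motif that binds the transcription factor CREB.

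A promoter window of 300 bases (250 before to 50 after the annotated start, RefSeq, rat build GRCr8) was found for 6 of the 7 precursors, and Penk had no entry. The windows of the 4 genes that passed a test below are shown, read 5′ to 3′ on the strand of the gene. Capitals mark every match to TGACG (the core of the cAMP response element, on either strand), to TGANTCA (an AP-1 element, on either strand) or to TATAAA (a core promoter motif, on the strand shown). Vgf lies on the minus strand of chromosome 12 at chr12:25276971-25277270, inside the annotated span of the gene. Gal lies on the minus strand at chr1:210084523-210084822. Tac1 lies on the plus strand at chr4:36645333-36645632, mostly inside the annotated span of the gene, which begins at 36645344. Sst lies on the plus strand at chr11:90461296-90461595.
Vgf: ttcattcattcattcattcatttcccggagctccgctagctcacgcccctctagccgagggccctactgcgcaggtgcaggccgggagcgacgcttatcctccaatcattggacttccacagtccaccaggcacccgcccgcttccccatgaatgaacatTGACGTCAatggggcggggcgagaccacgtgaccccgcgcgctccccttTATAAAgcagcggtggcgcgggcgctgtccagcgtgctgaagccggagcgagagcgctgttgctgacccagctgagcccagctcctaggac
Gal: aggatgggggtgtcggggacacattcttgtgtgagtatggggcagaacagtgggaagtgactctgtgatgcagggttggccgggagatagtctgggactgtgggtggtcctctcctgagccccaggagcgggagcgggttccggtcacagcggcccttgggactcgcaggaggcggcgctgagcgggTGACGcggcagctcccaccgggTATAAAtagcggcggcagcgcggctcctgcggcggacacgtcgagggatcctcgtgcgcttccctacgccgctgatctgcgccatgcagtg
Tac1: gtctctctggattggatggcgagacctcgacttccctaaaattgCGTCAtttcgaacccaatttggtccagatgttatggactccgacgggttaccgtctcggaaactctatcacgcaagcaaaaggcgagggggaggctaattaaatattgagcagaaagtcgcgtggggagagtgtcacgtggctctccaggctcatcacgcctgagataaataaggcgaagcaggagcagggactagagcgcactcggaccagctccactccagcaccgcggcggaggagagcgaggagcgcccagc
Sst: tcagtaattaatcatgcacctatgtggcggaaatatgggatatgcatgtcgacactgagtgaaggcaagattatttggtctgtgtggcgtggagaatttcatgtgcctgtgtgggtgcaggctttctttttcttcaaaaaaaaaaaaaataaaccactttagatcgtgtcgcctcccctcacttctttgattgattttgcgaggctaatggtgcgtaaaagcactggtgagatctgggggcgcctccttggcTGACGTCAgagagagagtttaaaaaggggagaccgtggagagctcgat

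The Vgf and Sst windows each held a full cAMP response element, made of cores on both strands that overlap by 2 bases. The cores began 90 and 87 bases before the start of Vgf, and 2 and 5 bases after the annotated start of Sst. Such a full element was present in 1.83% of 33469 rat promoter windows of the same length. Gal held 1 core 63 bases before its start, and Calca held 1 at 112 bases before its start. Tac1 held 1 on the opposite strand 206 bases before the start used for its window, a position inside the annotated span of the gene. A single core or more was present in 21.2% of all windows. Vgf and Gal each carried a TATAAA match 41 bases before the start, a motif found in 8.8% of windows. TGANTCA, present in 7.3% of windows, matched none of the 6 precursor windows, and the Npy window held none of the 3 motifs. A match is a run of letters and not evidence that a factor binds there.

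The files pair probe identifiers with signals in a way that the signals contradict, so the identifiers were sorted before they were joined. As deposited, probes of smell and related receptors were detected on 51.8% of arrays and ribosomal and proteasome probes on 51.9%. After sorting, the shares were 6.08% for 1271 receptor probes and 91.9% for 91 ribosomal and proteasome probes. This pairing was inferred and is not stated by the authors, and every value of a named gene below rests on it. The pool of WT rats 30 min after injury stood apart, with 41.3% of probes detected against 49.6% to 53.8% in the other 11 pools. The rat Sod1 probe read 12.29 to 12.95 log2 units in WT pools and 12.42 to 12.90 in G93A pools, so it does not separate the genotypes. Levels are given as normalized log2 intensity, and a precursor counts as higher or lower when the adjusted p of a limma fit over all 13793 tested probes is under 0.05.

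**Figure D1:**
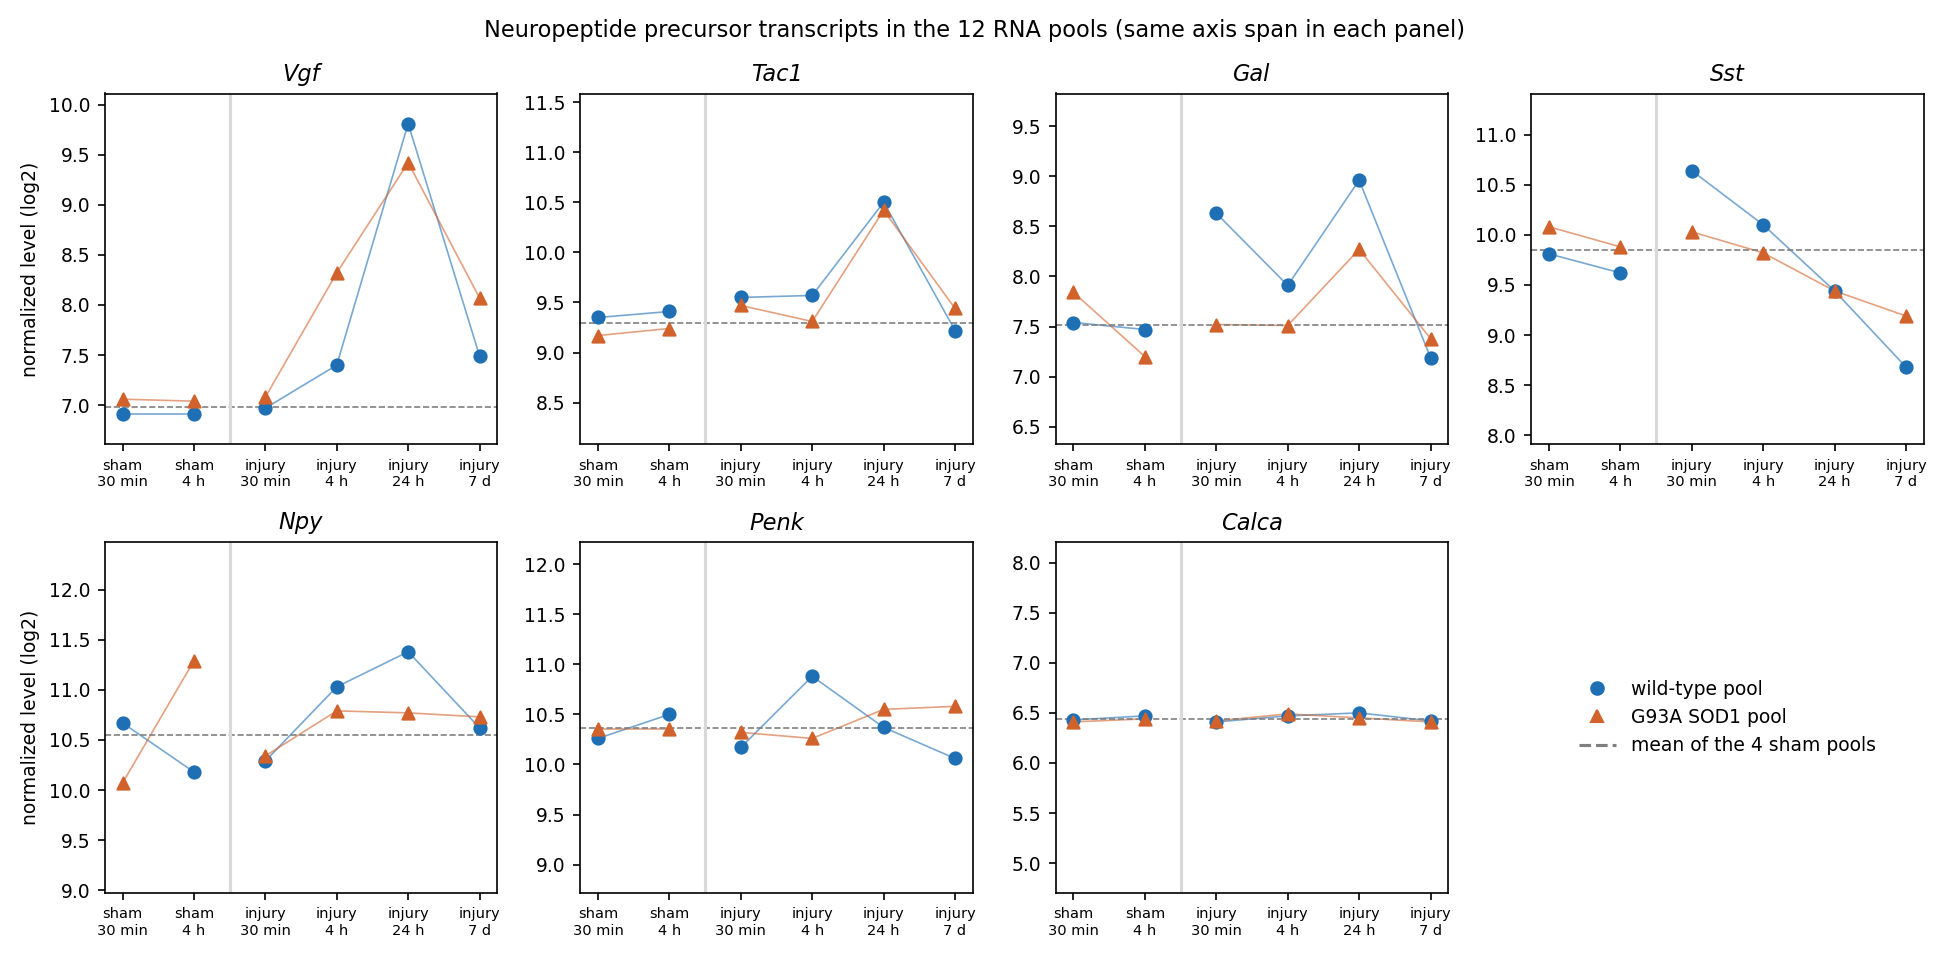
Normalized level (log2 intensity) of each precursor in the 12 pools, by condition, with WT pools as blue circles, G93A pools as orange triangles and the mean of the 4 sham pools as a dashed line. Every panel spans the same number of log2 units. The 24 h pools of Vgf stand at 9.81 and 9.42 and those of Tac1 at 10.50 and 10.42, while both Sst pools at 7 d lie below the dashed line.

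One day after injury, 3 of the 7 precursors were higher than in the sham pools and none was lower. No sham pool was taken at 24 h or 7 d, so injury and time since surgery cannot be told apart at these times. Vgf, which encodes a secreted granin-like protein whose fragments act on neurons, rose most, and Tac1, the precursor of substance P and neurokinin A, and Gal, the precursor of galanin, rose as well. For comparison, 11.4% of all tested probes were higher and 9.37% were lower at 24 h. At 7 d Vgf was still higher, Sst, the precursor of somatostatin, was lower, and the other 5 did not pass the test, against 11.4% of probes higher and 9.63% lower. Npy, Penk and Calca passed the test in no comparison. Without the WT pool of low detection, the differences at 24 h and 7 d were as large and the adjusted p smaller, at 1.31e-05 for Vgf, 0.00014 for Tac1 and 0.00116 for Gal at 24 h, and 0.013 for Vgf and 0.00135 for Sst at 7 d. With that pool left out, its G93A partner was fitted exactly, and leaving out either 30 min injury pool removed the same residual. The smaller adjusted p therefore does not single out the WT pool. The background at the early times was small, with 0.138% of probes called at 30 min, all higher. At 4 h the share was 0.551% (0.522% higher and 0.0290% lower). By limma, 0 of 7 precursors were among the probes called at either time. At an unadjusted p under 0.05 the precursors called numbered 0 at 30 min, 1 at 4 h, 4 at 24 h and 2 at 7 d. The 4 at 24 h include the Calca probe, which was detected on only 2 of 12 arrays. The share of all probes at the unadjusted threshold is not given for these comparisons, so these counts have no background.

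Vgf lies on chromosome 12 (25274004 to 25281803, GRCr8). Its level in sham pools was 6.91 at 30 min and 6.91 at 4 h in WT, and 7.06 and 7.04 in G93A. After injury, the WT pools read 6.97 at 30 min, 7.40 at 4 h, 9.81 at 24 h and 7.49 at 7 d. The G93A pools read 7.08, 8.32, 9.42 and 8.07 at the same times. Every pool from 4 h on was above every sham pool, and both 24 h pools were above all the others. At 24 h Vgf exceeded the sham mean by 2.63 ± 0.24 log2 units (SE, 95% interval 2.10 to 3.17), a 6.20-fold difference with an adjusted p of 0.000104. It ranked 21 from the top among the 13793 tested probes. The call held without each of the 12 pools in turn, with values from 2.25 to 3.01 and a highest adjusted p of 0.00402.

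The rise of Vgf at 7 d was smaller, at 0.80 ± 0.24 log2 units (95% interval 0.26 to 1.34), or 1.74-fold, with an adjusted p of 0.0392. That call was lost without the WT 7 d pool (1.0, adjusted p = 0.151), the G93A 7 d pool (0.60, adjusted p = 0.289) or any 1 of the 4 sham pools (0.76 to 0.84, adjusted p from 0.0873 to 0.112). Between 24 h and 7 d, Vgf fell by 1.83 log2 units (SE 0.28, 3.56-fold, adjusted p = 0.0043), rank 16 from the bottom of all probes. Without the WT 24 h pool the difference was -1.45 and its adjusted p 0.0833, and without the WT 7 d pool -1.63 and 0.0775. At 4 h the difference from the 4 h shams was 0.88 ± 0.28 (95% interval 0.26 to 1.50), which had an unadjusted p of 0.0095 and an adjusted p of 0.401. The G93A pool was 1.28 above its own 4 h sham and the WT pool 0.49 above its own. In the order of condition means, 24 h (9.61) stood clear, 4 h (7.86) and 7 d (7.78) overlapped, and 30 min (7.03) overlapped with both sham conditions (6.99 and 6.98).

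Tac1 lies on chromosome 4 (36645344 to 36653548). The sham pools read 9.35 and 9.41 in WT and 9.17 and 9.24 in G93A, at 30 min and 4 h. After injury the WT pools read 9.55, 9.57, 10.50 and 9.22, and the G93A pools 9.47, 9.31, 10.42 and 9.44, in order of time. The 24 h pools were above all the other 10, which spanned 9.17 to 9.57. At 24 h Tac1 was 1.16 ± 0.17 log2 units above the shams (95% interval 0.79 to 1.54, 2.24-fold, adjusted p = 0.00133), and the increase was 1.11 in WT and 1.21 in G93A against their own shams. Leaving out any 1 pool gave 1.14 to 1.19 with adjusted p up to 0.0353. By 7 d the difference from the shams was 0.04 ± 0.17 (95% interval -0.34 to 0.41, adjusted p = 0.914). The fall from 24 h to 7 d was -1.13 ± 0.20 (adjusted p = 0.00889), a call lost without the WT 24 h pool (-1.13, adjusted p = 0.107), the G93A 24 h pool (-1.12, 0.077) or the WT 7 d pool (-0.93, 0.136). In that comparison 3 of the 7 precursors (Vgf, Tac1 and Gal) were lower and none was higher, against 1.57% and 2.96% of all probes (4.52% in either direction). In the order of condition means of Tac1, 24 h (10.46) stood clear of 30 min (9.51), 4 h (9.44), 7 d (9.33) and the shams (9.33 and 9.26). Below 24 h, neighbours in this order overlapped, but both 30 min pools lay above all sham pools and both 7 d pools.

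Gal lies on chromosome 1 (210079709 to 210084572). Its sham pools read 7.54 and 7.47 in WT and 7.84 and 7.20 in G93A. After injury it read 8.63, 7.91, 8.96 and 7.19 in WT, and 7.52, 7.51, 8.27 and 7.38 in G93A. The 24 h pools were above every sham pool, but the WT pool at 30 min lay between them. At 24 h Gal was 1.10 ± 0.27 log2 units above the shams (95% interval 0.50 to 1.70, 2.15-fold, adjusted p = 0.0169), by 1.45 in WT and 0.75 in G93A. The call held in 8 of the 12 fits that left out 1 pool. It was lost without the WT sham at 30 min (0.91, adjusted p = 0.0669), the WT sham at 4 h (1.09, 0.0562), the WT 24 h pool (0.89, 0.245) or the G93A 24 h pool (1.31, 0.0623).

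At 7 d Gal stood at -0.23 ± 0.27 against the shams (95% interval -0.83 to 0.37, adjusted p = 0.619). From 24 h to 7 d it fell by 1.33 log2 units (SE 0.31, 2.51-fold, adjusted p = 0.0387), which held in 4 of the 12 fits without 1 pool, with values from -1.64 to -1.01 and adjusted p up to 0.404. At 30 min the genotypes went opposite ways, with the WT pool 1.10 above its sham and the G93A pool 0.32 below its own. The joint difference at 30 min was 0.39 ± 0.31 (95% interval -0.30 to 1.08, adjusted p = 0.653). Without the G93A pool at 30 min it was 0.86 with an adjusted p of 0.0399, a value that then rests on the WT pool of low detection. In the order of condition means, 24 h (8.62) was followed by 30 min (8.08), 4 h (7.71), the shams (7.69 and 7.34) and 7 d (7.29). Neighbours in this order overlapped except the 30 min and 4 h shams.

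**Figure D2:**
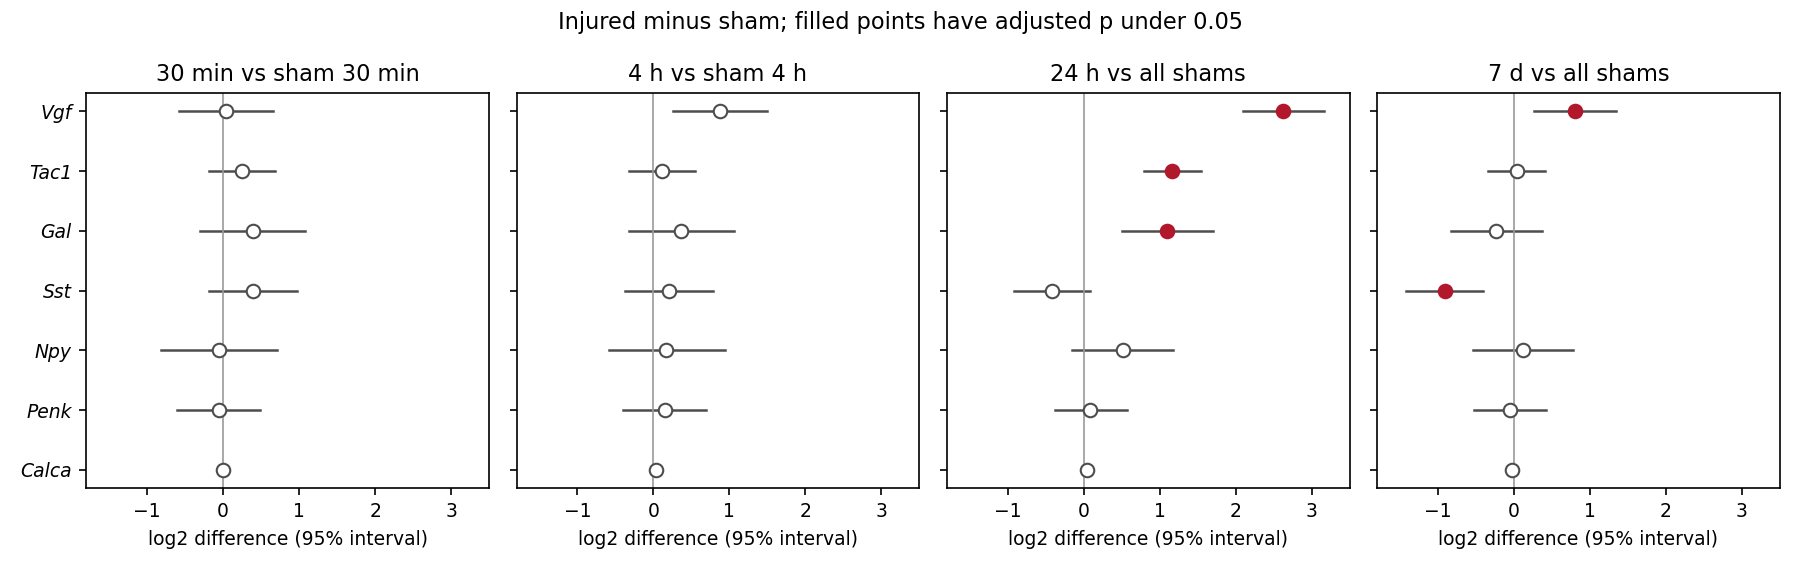
Difference of injured from sham pools in log2 units, with 95% intervals from the limma fit, for each precursor at 4 times. Filled points have an adjusted p under 0.05: Vgf (2.63), Tac1 (1.16) and Gal (1.10) at 24 h, and Vgf (0.80) and Sst (-0.91) at 7 d.

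Sst lies on chromosome 11 (90461546 to 90462823) and was the one precursor that fell below the shams. Sham pools read 9.81 and 9.62 in WT and 10.08 and 9.88 in G93A. Injured WT pools read 10.64, 10.10, 9.44 and 8.68, and injured G93A pools 10.03, 9.82, 9.44 and 9.19, at 30 min, 4 h, 24 h and 7 d. The 24 h pools were below all 4 sham pools, and the 7 d pools were below every other pool. At 7 d Sst was lower by 0.91 log2 units, with a difference of -0.91 ± 0.23 (95% interval -1.42 to -0.41, 1.88-fold lower, adjusted p = 0.0168), ranking 535 from the bottom of all probes. The difference was -1.03 in WT and -0.79 in G93A against their own shams. The call was lost without the WT 7 d pool (-0.63, adjusted p = 0.312), the G93A sham at 30 min (-0.84, 0.0634) or the G93A sham at 4 h (-0.84, 0.0532).

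At 24 h Sst differed from the shams by -0.41 ± 0.23 (95% interval -0.91 to 0.09, adjusted p = 0.234). The step from 24 h to 7 d was -0.50 ± 0.26 (adjusted p = 0.416). At 30 min it was 0.39 ± 0.26 above its sham (95% interval -0.19 to 0.97, adjusted p = 0.627), by 0.83 in WT and -0.05 in G93A. Without the G93A pool at 30 min that value was 0.77 with an adjusted p of 0.0332, again resting on the WT pool of low detection. In the order of condition means Sst ran from 30 min (10.34) through 4 h (9.96), the shams (9.95 and 9.75) and 24 h (9.44) to 7 d (8.94), and neighbours among the first 4 of these overlapped.

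**Figure D3:**
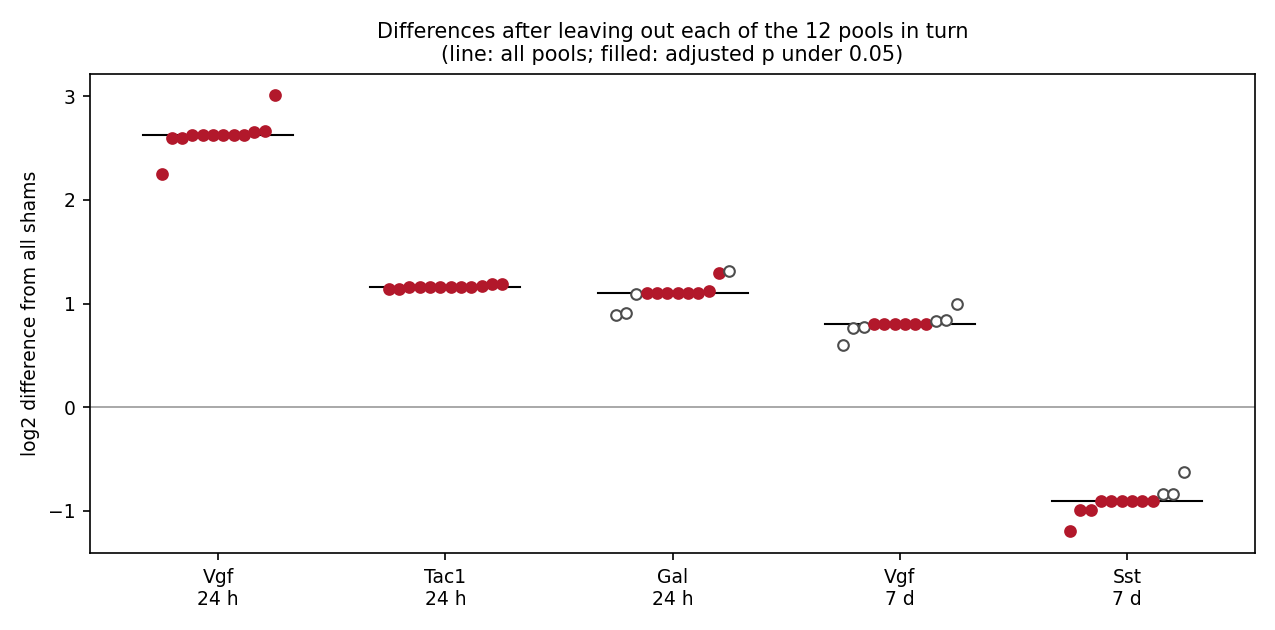
Differences from all sham pools (log2) for the 5 called values after leaving out each of the 12 pools in turn, with the value from all pools as a line and filled points for an adjusted p under 0.05. Vgf and Tac1 at 24 h are filled throughout, while Gal keeps its call in 8 fits, Vgf at 7 d in 6 and Sst at 7 d in 9.

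Npy and Penk, the precursors of neuropeptide Y and of the enkephalins, were among the brighter of the 7 probes and passed no test. Npy (chromosome 4, 80212111 to 80219310) read 10.67 and 10.18 in WT shams and 10.07 and 11.29 in G93A shams, a spread of 0.56 (SD, n = 4) around 10.55. Injured pools read 10.29, 11.03, 11.38 and 10.62 in WT and 10.34, 10.79, 10.77 and 10.73 in G93A. The G93A sham at 4 h was exceeded only by the WT pool at 24 h, so the injured and sham ranges overlapped at every time. The difference at 24 h was 0.52 ± 0.30 (95% interval -0.15 to 1.18, adjusted p = 0.254), with 0.95 in WT and 0.09 in G93A, and without the G93A sham at 4 h it was 0.86 with an adjusted p of 0.0298. At 7 d it was 0.12 ± 0.30 (95% interval -0.54 to 0.78). The condition means ran from 11.07 at 24 h to 10.31 at 30 min, and neighbours overlapped throughout. The upper bound of 1.18 for Npy lies above the 1.16 measured for Tac1, so the interval does not exclude a rise of that size in Npy.

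Penk (chromosome 5, 21981381 to 21987074) read 10.26 and 10.50 in WT shams and 10.35 and 10.35 in G93A shams. Injured WT pools read 10.17, 10.88, 10.37 and 10.06, and injured G93A pools 10.32, 10.26, 10.55 and 10.58. Its whole range over the 12 pools was 0.82 log2 units, against 2.89 for Vgf and 1.96 for Sst. The difference from the shams was 0.09 ± 0.22 at 24 h (95% interval -0.38 to 0.57, adjusted p = 0.799) and -0.05 ± 0.22 at 7 d (95% interval -0.52 to 0.43, adjusted p = 0.914). Its condition means lay between 10.25 and 10.57, and neighbours overlapped.

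Calca (chromosome 1, 178312636 to 178317588) encodes calcitonin and, by alternative splicing, the calcitonin gene-related peptide of sensory and motor neurons. Its probe was detected on only 2 of 12 arrays, WT at 24 h and G93A at 4 h, and entered the fit through these. Its levels spanned 6.41 to 6.50, so no level of Calca was measured in most pools and no fold change is given. The sources used here do not say which Calca transcripts the probe reads. The other 6 precursors were detected on all 12 arrays.

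The genotypes were compared next, since the study set G93A rats beside their WT littermates. No precursor differed between them, and by limma 0 of 13793 probes did (0.00%), with 316 probes and 0 precursors at an unadjusted p under 0.05. Vgf was 0.25 ± 0.16 higher in G93A (95% interval -0.11 to 0.60) and above the WT pool in 5 of 6 conditions. Gal stood at -0.33 ± 0.18 (95% interval -0.73 to 0.07), with G93A above WT in 2 of 6 conditions. The remaining 5 differed by at most 0.09 on average, and all adjusted p-values were 0.979 or higher. Whether the genotype difference at 24 h and 7 d departed from that in the other conditions was tested as an interaction, which called 0 probes (0.00%) by limma and 563 at an unadjusted p under 0.05. The interaction was 0.48 ± 0.28 for Penk, 0.34 ± 0.32 for Sst, -0.33 ± 0.44 for Npy, 0.25 ± 0.23 for Tac1, -0.22 ± 0.36 for Vgf and 0.13 ± 0.41 for Gal (adjusted p = 0.998 for each). The sham conditions were also compared, and 0 of 7 precursors differed between 4 h and 30 min after the operation (adjusted p = 0.999), against 0.0508% of probes.

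Of 27 other peptide and granin precursors tested, 5 were higher and 7 were lower at 24 h, with a median of 0.01 log2 units against -0.01 over all probes. Trh, the precursor of thyrotropin-releasing hormone, was 2.20 ± 0.26 above the shams (adjusted p = 0.000415). It read 7.26 to 7.40 in the shams, 9.50 and 9.55 at 24 h and 9.69 and 8.47 at 7 d (WT and G93A). Calcb, which encodes the beta form of calcitonin gene-related peptide, was 1.02 ± 0.24 higher (adjusted p = 0.0152), and it fell by 1.25 from 24 h to 7 d (SE 0.28, adjusted p = 0.0312), a call lost without the WT 7 d pool (adjusted p = 0.359). Ucn, the precursor of urocortin, went the other way from 24 h to 7 d (0.61 ± 0.05, adjusted p = 9.29e-05), though its probe was detected on only 4 arrays. The Calcb shams read 7.46 and 7.56 at 30 min and 7.89 and 8.40 at 4 h (WT and G93A). That step between shams was 0.64 ± 0.28 (adjusted p = 0.999 by limma). The 24 h pools read 8.96 and 8.72, so they stood closer to the 4 h shams than to the 30 min shams. Calca and Calcb are closely related in sequence, and whether their probes read each other's transcript was not tested. The dense-core vesicle proteins Chga (-1.20 ± 0.38, adjusted p = 0.0467) and Scg3 (-0.92 ± 0.15, adjusted p = 0.00256) were lower. Without the WT 24 h pool, Chga, Calcb and Scg3 lost their calls at 24 h (adjusted p = 0.452, 0.227 and 0.0832), and Chga lost it in 14 of 19 alternatives, while Trh kept its call at both late times in all 19 alternatives that use the sorted identifiers.

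At 7 d, 4 of these 27 were higher and 7 lower, with a median of -0.19. Trh was still 1.75 ± 0.26 higher (adjusted p = 0.00108), whereas the granins Chga (-1.49 ± 0.38, adjusted p = 0.0183), Chgb (-1.38 ± 0.22, adjusted p = 0.0018) and Scg2 (-0.96 ± 0.30, adjusted p = 0.047) were lower. Without the WT 7 d pool these 3 granins lost their calls (adjusted p = 0.299, 0.0628 and 0.373). VGF is often counted with the granins, and its transcript was higher in the same pools.

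Among 11 genes of precursor processing and vesicle release, 1 was higher and 4 were lower at 24 h (median -0.46), and 2 were higher and 5 lower at 7 d (median -0.24). Pcsk1n, which encodes an inhibitor of the convertase PC1/3, was lower at both times (-1.08 ± 0.24 and -1.05 ± 0.24, adjusted p = 0.0108 and 0.0111). Scg5, the chaperone of the convertase PC2, was lower by 0.94 and 1.45 log2 units, with differences of -0.94 ± 0.28 (adjusted p = 0.0383) and -1.45 ± 0.28 (adjusted p = 0.0049). Cadps, which primes dense-core vesicles for release, followed with -1.0 ± 0.32 and -1.59 ± 0.32 (adjusted p = 0.0486 and 0.00574). Ctsl, a protease of lysosomes that can also cut precursors, was higher at 24 h (0.52 ± 0.13, adjusted p = 0.0205) and at 7 d (0.96 ± 0.13, adjusted p = 0.000683). Without the WT pool of the time concerned, Pcsk1n, Scg5 and Cadps lost their calls at 24 h (adjusted p = 0.218, 0.371 and 0.309) and at 7 d (0.234, 0.157 and 0.177), and Ctsl at 24 h (0.166).

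Of 12 peptide-degrading enzymes, 2 were higher and 1 lower at each late time, with medians of 0.01 and -0.04. Anpep, aminopeptidase N, was 0.82 ± 0.09 higher at 24 h (adjusted p = 0.000238) and 0.83 ± 0.09 at 7 d (adjusted p = 0.000105). Ece1, an endothelin-converting enzyme that also degrades peptides in endosomes, was 1.18 ± 0.30 higher at 24 h (adjusted p = 0.0197), a call lost without the WT 24 h pool (adjusted p = 0.157). Dpp7, a dipeptidyl peptidase of vesicles, was 2.04 ± 0.24 higher at 7 d (adjusted p = 0.000231). Of 18 receptor genes tested, 1 was higher at 24 h and 1 was higher and 1 lower at 7 d. The higher one was C3ar1, the receptor of complement C3a and of a VGF fragment, by 0.18 ± 0.04 at 24 h and 0.24 ± 0.04 at 7 d (adjusted p = 0.00803 and 0.00142). Its probe was detected on only 9 arrays. It read 6.48 to 6.50 in the shams, near background, and 6.66 to 6.78 in the 24 h and 7 d pools. C3ar1 lost its call at 24 h without the WT pool of that time (adjusted p = 0.0893). Sstr2, a somatostatin receptor, was -0.31 ± 0.10 at 7 d (adjusted p = 0.0491), a call lost without the WT 7 d pool (adjusted p = 0.403). The probes of Galr1, Galr3, Npy2r, Npy4r and Sstr5 did not pass the detection filter.

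**Figure D4:**
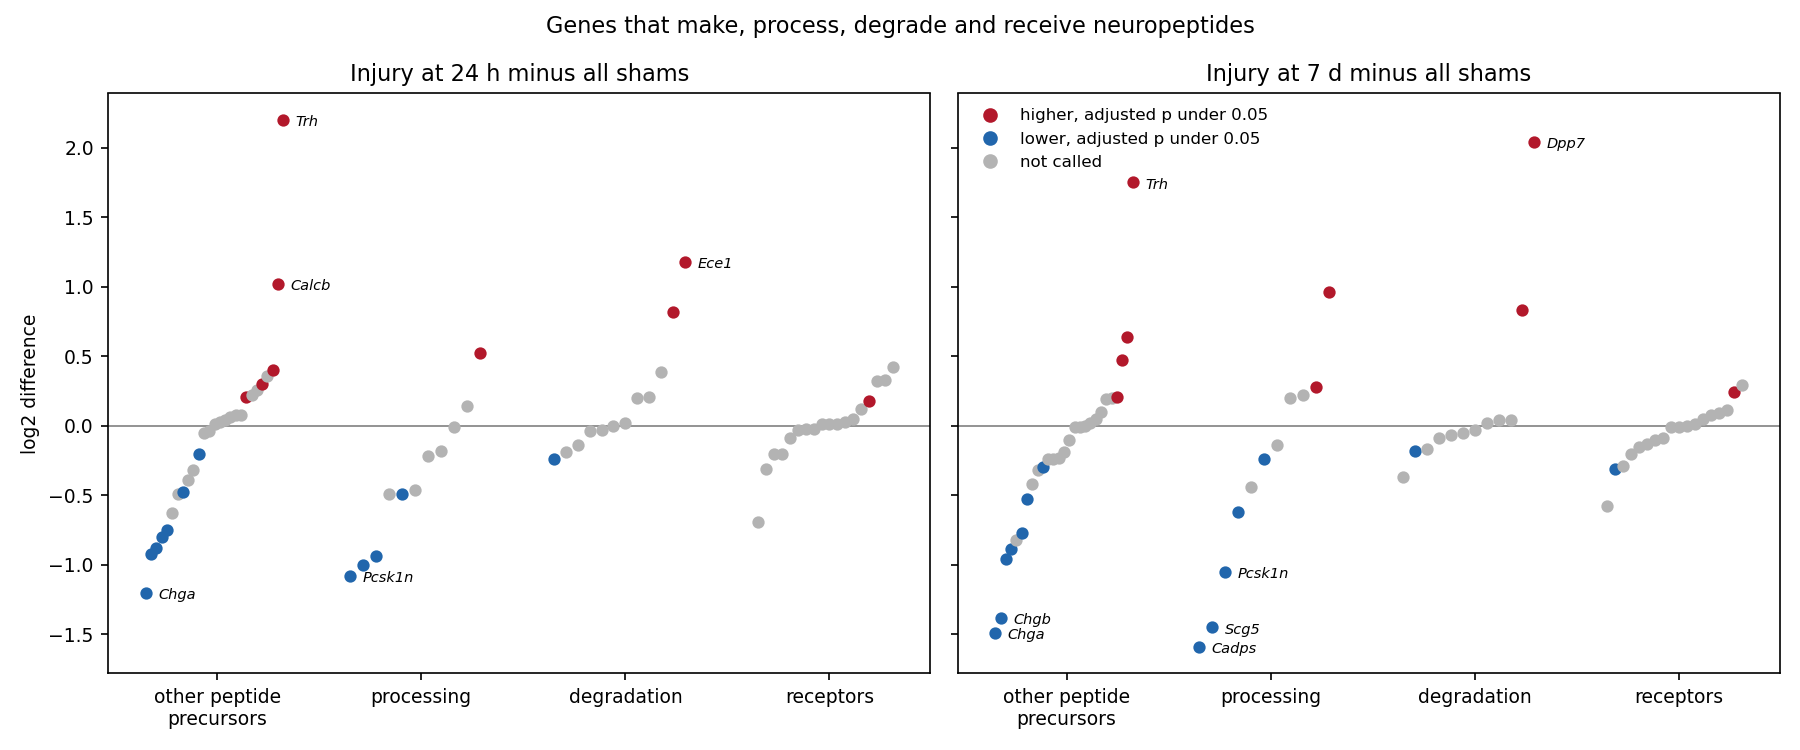
Difference from all sham pools (log2) of the tested genes of 4 lists at 24 h and at 7 d, each point 1 gene, sorted within its list and coloured where the adjusted p is under 0.05. Trh (2.20 and 1.75) stands highest among the other precursors at both times, and Pcsk1n, Scg5 and Cadps are the lowest of the processing genes.

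Markers of the cells in the cord moved over the same days. Of 16 neuron markers, 9 were lower at 24 h (median -0.93) and 14 at 7 d (median -1.35), and 0 were higher by limma. Their summed signal was 54606 to 61481 in the shams, 31895 to 39319 at 24 h and 19197 to 33367 at 7 d. For 12 dorsal horn markers the sums were 10415 to 11915, 7027 to 8233 and 4601 to 7405, with 5 lower at 24 h and 7 at 7 d. The brightest in the shams were Slc17a6, Gad1 and Slc6a5, genes of transmitter type that are not confined to the dorsal horn. Reln went the other way, with 10.08 to 10.54 in the shams and 10.66 and 10.70 at 7 d (WT and G93A). The sums therefore do not measure the dorsal horn alone. Calb2, a calcium-binding protein of dorsal horn interneurons, was -1.62 ± 0.33 at 24 h (adjusted p = 0.00687) and lost its call without the WT 24 h pool (adjusted p = 0.119). Sst fell in the pools in which the neuron and dorsal horn sums were low. Vgf, Tac1 and Gal had their highest condition means at 24 h, when the neuron sums were below those of the shams. In pooled tissue, fewer cells of a type and less RNA per cell cannot be told apart, and the part of the neuron markers in the fall of Sst was not tested.

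Of the sensory neuron markers, Scn10a read 6.50 to 6.61 and Trpv1 6.46 to 6.56 over the 12 pools, and they were detected on 11 and 6 arrays. Of 7 tested, 0 were higher by limma and 1 was lower at each late time, and the median was -0.05. The sums were 4462 to 5141 in the shams, 3558 to 3953 at 24 h and 2464 to 4386 at 7 d. Most of each sum came from Prph (11.46 to 11.78 in the shams), also counted as a motor neuron marker, and Ntrk2 (9.94 to 10.09). The sums therefore say little about Scn10a and Trpv1. Markers of microglia and macrophages rose, with 6 of 10 higher at 24 h (median 0.72) and 10 of 10 at 7 d (median 1.44), and with sums of 8178 to 9531, 11042 to 12155 and 26392 to 26414. Their sum was highest at 7 d, and the condition means of Vgf, Tac1 and Gal were highest at 24 h. The markers did not all follow the sum. From 24 h to 7 d, 7 of the 10 were higher by limma, but Cd14 was lower (-1.40 ± 0.25, adjusted p = 0.011). Cd14 read 9.34 and 10.26 at 24 h and 8.42 and 8.38 at 7 d (WT and G93A). Oligodendrocyte sums were 42514 to 46441, 23622 to 24462 and 26767 to 31265. Of 9 astrocyte markers, 1 was higher and 5 lower at 24 h (median -1.08), and 1 was higher and 4 lower at 7 d (median -0.10), with sums of 32173 to 34858, 28542 to 28815 and 34209 to 37198. The sums of 10 skeletal muscle markers were 2403 to 3314 in the shams, 1891 to 4056 at 30 min and 4 h, 1552 to 1610 at 24 h and 981 to 1118 at 7 d. Within this list Tnnc2 read 9.98 to 10.27 in the shams and 7.03 and 7.43 at 7 d (WT and G93A). Pvalb, also counted as a dorsal horn marker, read 8.65 to 9.21 and then 6.62 and 7.43. Ckm read 6.43, 6.68 and 6.45 in the shams other than WT at 4 h, and 6.47 in both 7 d pools. The late sums therefore do not follow muscle genes alone. The muscle genes Acta1 and Ckm, named after their values were seen, were highest in the WT sham at 4 h (9.52 and 8.34) and the WT pool 30 min after injury (9.09 and 8.30). In the other 10 pools they read at most 7.90 and 7.02. The second of these pools is the one in which Gal and Sst stood above their sham at 30 min. The part of these cells in the precursor levels was not tested.

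Genes of the response to nerve injury and of CREB-dependent transcription were followed as separate lists. Of 12 nerve injury genes, 2 were higher at 30 min, 1 at 4 h, 6 at 24 h and 5 at 7 d. Over all tested probes, 0.138%, 0.522%, 11.4% and 11.4% were higher at these times. At 24 h the largest of these were Gadd45a (1.22, adjusted p = 0.0038) and Atf3 (0.91, adjusted p = 0.0436), a growth arrest gene and a stress-response factor, and both lost their calls without the WT 24 h pool (adjusted p = 0.119 and 0.54). The early calls were Atf3 and Jun at 30 min and Atf3 at 4 h. Without the WT sham at 30 min the adjusted p of Atf3 and Jun at that time was 0.239 and 0.0988, and without the G93A sham 0.16 and 0.15. Atf3 at 4 h kept its call in 5 of the 12 fits without 1 pool, with adjusted p up to 0.355 without the WT sham at 4 h. Of 15 genes tested in the CREB list, 2 were higher at 30 min (Fos by 2.31 and Junb by 2.27) and 5 at 4 h, while 0 were higher by limma at 24 h, when Vgf peaked. Without the WT sham at 4 h, all 5 lost their calls at 4 h, namely Fos, Crem, Junb, Inhba and Bdnf (adjusted p = 0.192, 0.642, 0.706, 0.424 and 0.382). At 30 min, Fos and Junb lost theirs without the G93A sham (adjusted p = 0.15 and 0.12) or the WT sham (0.0988 for each).

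The named probes that most resembled each precursor over the 12 pools were listed by Pearson's r, as a description, since all values share the same arrays and normalization. For Vgf they were Mmp3 (0.97), Prmt1 (0.97) and Twf1 (0.96). For Tac1 they were Fetub (0.95), Wfdc2 (0.94) and Serpina3n (0.93), and for Gal they were Susd2 (0.94), Pus1 (0.92) and Mrpl17 (0.91). Sst had the closest likeness, to Acot7 (0.98), Syt7 (0.96) and Ndufs3 (0.96). Npy and Penk had looser ones, with Wdr5 (0.86), Ripor1 (0.84) and Eif4e3 (0.81) for the first and Bid (0.83), Perm1 (0.83) and Prps1 (0.82) for the second. For Calca the nearest were Ccl7 (0.95), Ccl2 (0.94) and Gmfb (0.94), over a range of 0.08 log2 units.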

How the data were processed

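Each of the 12 arrays held 1 pool of thoracic cord RNA, labelled with biotin. The authors deposited bead-level average intensity values from BeadStudio 3.2.6 (named in the submitters' processing notes). Between 20.97% and 28.62% of the values of each array were negative, so background had been subtracted. A detection p-value stands beside each signal, per the file headers. The series matrix holds a second set of intensity values deposited by the authors, used as an alternative. The sorting of identifiers was inferred from the data. A single symbol was known for 13192 of 22226 probes, none for 9034 and several for 0.

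The neqc function of limma 3.58.1 (R 4.3.3, offset 16) modelled background and quantile-normalized the signals. Probes with a detection p under 0.05 on at least 2 of 12 arrays were kept (13793, of which 9423 were named). The fit held condition and genotype with eBayes and an intensity trend, leaving 5 residual degrees of freedom (4 in the interaction fit). Since a condition has 1 pool per genotype, the error is how much WT and G93A pools differ from condition to condition, and a p-value reflects this spread of pools, not of animals. The reference was the sham of the same time for injury at 30 min and 4 h, and the mean of all 4 shams for 24 h and 7 d. Benjamini-Hochberg adjustment ran within each contrast, with a threshold of 0.05. The steps were run on simulated data with equal noise for every probe and shifts at 24 h larger than those of Tac1 and Gal. That run therefore does not show that differences of their size are recovered. The number of arrays limits the precision.

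The members and gene lists were chosen with earlier results of these data known. Named genes were the 7 precursors, from each list up to 4 with the largest difference among those called, and the 3 named probes most like each precursor. The alternatives were the background model, the series matrix, the eBayes trend, the detection filter, array weights, the genotype term, leaving out each pool, and the identifiers as deposited, the last chosen after seeing the data.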

Additional observations from a re-analysis of the deposited data

Results flagged for a closer look

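One precursor had opposite signs in the genotypes at both late times, though at 24 h its WT pool hardly differed from its shams (-0.01). Penk in the WT pools stood -0.01 and -0.32 from its own shams at 24 h and 7 d, and in the G93A pools 0.20 and 0.23. Averaged over the late times the genotypes differed by 0.38 log2 units (G93A minus WT), a pattern of 4 pools that was not itself tested. The interaction term, which sets the late genotype difference against all other conditions, was 0.48 ± 0.28 for Penk, with an adjusted p of 0.998 by limma.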

How the results depend on the processing

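Of 1042 precursor values recomputed under 19 alternatives, 954 kept direction and side of the threshold, 32 were no longer past it, 5 newly passed it and 51 changed direction. Of the 51, 0 were past the threshold in either fit. Vgf and Tac1 at 24 h kept their calls under all 19. Besides the pools named in the report, Gal at 24 h lost its call without a background model (1.14, adjusted p = 0.0645) and without the eBayes trend (1.10, 0.0529), as did Vgf at 7 d without the trend (0.80, 0.0758). The fall of Gal from 24 h to 7 d lost its call without a background model (adjusted p = 0.129), with the series matrix values (0.105) and without the trend (0.11). Array weights called Sst at 24 h (-0.41, adjusted p = 0.0421), and also the Calca probe, which lay near background on most arrays. The series matrix values turned the sign of Npy (0.08) and Penk (0.07) at 30 min, of Tac1 (-0.04) and the faint Calca probe (0.10) at 7 d, and of the genotype difference of Penk (-0.05) and Sst (-0.06). Array weights turned the interaction of Gal (-0.23). Without 1 pool, signs turned within these ranges: between shams, Vgf -0.08 to 0.06, Gal -0.73 to 0.03 and Npy -0.32 to 1.05. At 30 min they were Vgf -0.04 to 0.13, Gal -0.08 to 0.86, Npy -0.41 to 0.29 and Penk -0.13 to 0.01. At 4 h they were Npy -0.51 to 0.86 and Penk -0.24 to 0.54. At 7 d they were Gal -0.54 to 0.09, Npy -0.22 to 0.46, Tac1 -0.15 to 0.23 and Penk -0.34 to 0.25, and from 24 h to 7 d Penk -0.43 to 0.15. For genotype they were Npy -0.26 to 0.09, Penk -0.07 to 0.15 and Sst -0.07 to 0.15, and for the interaction Vgf -0.71 to 0.26, Gal -0.31 to 0.57 and Npy -0.69 to 0.03. With the identifiers as deposited, an alternative chosen after seeing the data, 0 of 7 precursors were called at 24 h, at 7 d and from 24 h to 7 d. Counts of called probes moved more. Without a background model they were 11 between shams, 40 at 4 h, 403 from 24 h to 7 d and 8 for the interaction. With the series matrix values they were 11, 30 and 267 for the first 3 of these. Without the trend they were 4 between shams, 6 at 30 min and 14 at 4 h, and 1 precursor was called at 7 d. Without a detection filter 4 probes differed between shams, and with probes detected on all 12 arrays 49 were called at 4 h. Array weights gave 91 between shams, 1 at 30 min, 288 at 4 h, 5676 at 24 h (5 precursors), 4606 at 7 d and 1351 from 24 h to 7 d. These weights were 0.198 for both 30 min injury pools, and in every condition the WT and G93A pools had equal weights. With 1 pool per genotype the residuals of a condition are equal and opposite. The weights therefore cannot tell which pool of a condition departs. Leaving out each pool in turn gave 2 to 27 probes between shams, 0 to 4206 at 30 min, 0 to 236 at 4 h, 469 to 5058 at 24 h, 640 to 4910 at 7 d, 136 to 1498 from 24 h to 7 d, 0 to 0 for genotype and 0 to 10 for the interaction. The lowest counts at 24 h and 7 d came without the WT pool of that time, and the highest without the WT pool at 30 min after injury. Leaving out either 30 min injury pool removed the same residual, so these highest counts do not single out the WT pool. Precursors called then numbered 0 to 2 at 30 min, 2 to 4 at 24 h, 0 to 2 at 7 d and 0 to 3 from 24 h to 7 d, and 0 to 0 elsewhere. Of 67 values of list genes, 13 kept their call under every alternative run on them, 54 lost it in at least 1 and 31 in at least 5, and 0 changed direction. The cause of these changes was not tested beyond the smaller number of pools or probes in each fit. No paired analysis was possible because each condition has 1 pool per genotype, the labels number no replicates, and genotype is already a term of the fit. Probe intensity near background limits Calca, and 12 arrays with 5 residual degrees of freedom limit the rest.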
